A study of Mus musculus with 9 samples.

Results

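The drug and bile acid transporters of the liver were taken as all protein-coding genes of the deposited table whose symbol starts with Slco, Slc22a, Slc10a, Slc47a, Abcb, Abcc or Abcg followed by a digit. This rule, which used no measured value, found 74 genes among the 54532 of the table, 22046 of which were protein-coding. A total of 31 had a mean of at least 1 FPKM (fragments per length of gene and size of library) over the 9 libraries and were tested, 31 were above 0 but under this mean, and 12 were at 0 in every library. The 12 were Abcb5, Abcc8, Slc22a6, Slc22a8, Slc22a12, Slc22a16, Slc22a19, Slc22a20, Slco1a5, Slco1a6, Slco6c1 and Slco6d1.

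Hepatocytes take up bile acids, drugs and organic ions from the blood of the sinusoids through solute carriers. These are the sodium-taurocholate cotransporter NTCP (Slc10a1), the organic anion transporting polypeptides (OATPs, Slco genes), and the organic cation and anion carriers of the Slc22 family. ATP-driven pumps of the Abcb, Abcc and Abcg families and the proton exchanger MATE1 (Slc47a1) then move bile salts, phospholipid, sterols and drug conjugates across the canalicular membrane into bile, while Abcc3 and Abcc4 export conjugates and bile acids back to the blood. Acetaminophen (APAP) conjugates leave hepatocytes through such pumps. Other members of these families belong to kidney, gut, testis or brain, to mitochondria and lysosomes, or, as Abcc8 and Abcc9, regulate potassium channels.

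RNA was sequenced from 9 livers of male C57BL/6 mice aged 5 to 7 weeks, 3 in each group. Mice of the APAP group (the vehicle group of the study) were fasted overnight, given 500 mg/kg APAP into the peritoneum and killed after 6 h. Mice of the AMSC group received the same dose and, directly afterwards, 200000 adipose-derived mesenchymal stem cells (AMSCs) by tail vein, grown from the inguinal fat of C57BL/6 mice, with the same 6 h time point. The NC group was the normal control, for which no dose, injection or time is given. The methods state fasting for all animals but as a step before APAP, so that it is not clear whether the NC mice were fasted. Values of the NC and APAP groups are listed below in the order of replicates 1, 2 and 3, and those of the AMSC group in the order of replicates 2, 3 and 4.

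The libraries held 13418921 to 16210930 reads on genes. NC replicate 3 carries another date in its title than the other 8 libraries, and its title numbers it 1 where its description, used here, has 3. Its group was therefore also compared without it, within a single date. The deposited FPKM of a library were not scaled to its reads on genes. The denominator was 1.08 to 1.16 times these reads in the NC group, 0.909 to 0.949 times in the APAP group and 0.969 to 0.985 times in the AMSC group, so that a gene with an equal share of the reads was listed higher in the APAP than in the NC group. Rescaling to the reads on genes moved the median log2 difference of all 9699 genes tested from -0.00 to -0.22 in APAP against NC, from 0.02 to -0.14 in AMSC against NC, and from 0.01 to 0.06 in AMSC against APAP. Differences are given on the deposited scale, where this median lay near 0, and values under the rescaling (chosen after seeing the data), which carry the whole shift of the median, stand beside them where the call of a transporter is lost. For genes outside the transporter families, no values under the rescaling or without a library are given. In whole liver, fewer cells of a type and less RNA per cell cannot be told apart. The methods call the libraries of a group biological replicates, each is taken here as 1 liver, and p-values cover the spread between these libraries only. The 5 hepatocyte markers summed to 37901 to 41227 (NC), 54370 to 64377 (APAP) and 48966 to 51434 FPKM (AMSC), without overlap. At an adjusted p of at most 0.05, 2 of them were higher than in NC in each treated group, beside 12.8% (APAP) and 14.1% (AMSC) of all genes. The 4 kidney tubule markers summed to at most 0.0636 FPKM.

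In the NC group, uptake carriers stood at the top of the list. Slc10a1 had the highest level, 260 ± 11.7 FPKM (mean ± SD, n = 3 in all such values), and the OATP Slco1b2 stood next with 200 ± 46.3 FPKM, its libraries all below those of Slc10a1. Further down, Slco1a1, another OATP, and Slc22a18, a carrier of uncertain substrates, were at 70.4 ± 2.54 and 70.2 ± 6.72 FPKM and overlapped with each other. The highest efflux pumps were the bile salt export pump Abcb11 with 52.6 ± 8.18 FPKM, the conjugate pump Abcc2 with 46.8 ± 17.8 FPKM and the sinusoidal pump Abcc3 with 45.5 ± 8.16 FPKM, which overlapped with one another. Slc22a30 (32.1 ± 3.53), Abcg5 (25.9 ± 5.32) and Abcc6 (22.9 ± 1.30 FPKM) came after them.

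**Figure D1:**
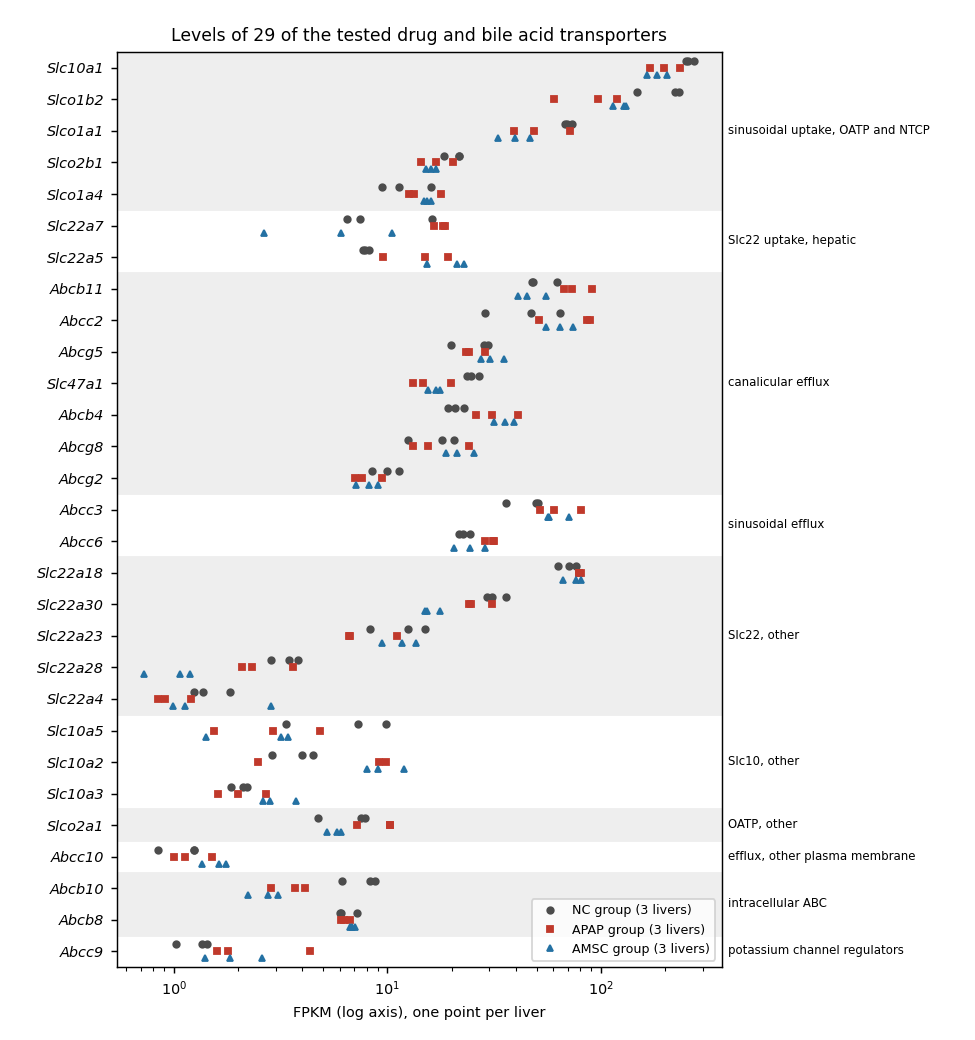
FPKM of 29 of the 31 tested transporters on a log axis, with 1 point per liver and 3 livers in each of the NC, APAP and AMSC groups. Slc10a1 and Slco1b2 reach the highest values in the NC group, and the AMSC points of Slc22a30 and Slc22a28 lie left of the points of both other groups.

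To ask how the transporters stood after APAP, the APAP group was compared with the NC group. Injection, time and fasting of the NC mice are not clear, so APAP cannot be told apart from these. Of the 31 tested transporters, 4 rose (Slc22a5, Abcb4, Abcb11 and Abcc6) and 4 fell, among them Slco1b2, Abcb10 and Slc47a1, at an adjusted p of at most 0.05, and Slco1b2 alone was a DEG, its log2 fold change being 1 or more in size as well. That was 8 of 31, or 25.8%, beside 25.9% of all genes tested (12.8% higher and 13.1% lower), and 1 DEG beside 7.90% of all genes. The median difference over the 31 was -0.01. Groups did not overlap for 14 of them (8 higher and 6 lower), beside 43.2% of all genes. The split of calls depended on the scaling: 0 rose and 10 fell after rescaling to the reads on genes (all genes 821 higher and 2646 lower, against 1243 and 1271 in the deposited scale), and 0 rose and 5 fell after quantile normalization (all genes 1090 and 1467). In these limma fits, 1 and 4 transporters were higher at an unadjusted p under 0.05, and voom of limma on the reads recovered from the FPKM called 5 higher and 4 lower. With a library left out, 13.9% (without NC replicate 2) to 28.3% (without APAP replicate 1) of all genes were called.

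Slco1b2 (ENSMUSG00000030236, plus strand of chromosome 6, 141629518 to 141686646, GRCm38), which carries statins, bilirubin conjugates and unconjugated bile acids into hepatocytes, was at 222, 147 and 232 FPKM in the NC group, at 120, 60.3 and 96.4 in the APAP group, and at 131, 114 and 129 in the AMSC group. All APAP and AMSC livers were below all NC livers, and the APAP and AMSC ranges overlapped. It fell by 1.14 on the log2 scale of FPKM + 1 (SE 0.28, adjusted p = 0.0215), and by 1.40 after rescaling to the reads on genes (adjusted p = 0.00757), which is -1.18 relative to the median gene. The call was lost without NC replicate 3, that is within a single date (-1.02, adjusted p = 0.0669), without NC replicate 1 (adjusted p = 0.0752) and without APAP replicate 2 (adjusted p = 0.0526), and with all genes above 0 tested (adjusted p = 0.111). As the only DEG among the transporters in APAP against NC, its promoter is shown, taken as the 250 bases before its start in RefSeq (GRCm38.p6, plus strand, chr6:141629268-141629517), with capitals marking matches to motifs.

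Slco1b2: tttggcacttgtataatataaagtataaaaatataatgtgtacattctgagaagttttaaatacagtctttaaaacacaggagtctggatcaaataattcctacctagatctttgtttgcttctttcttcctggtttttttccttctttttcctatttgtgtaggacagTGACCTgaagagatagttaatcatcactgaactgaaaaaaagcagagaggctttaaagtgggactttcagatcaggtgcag

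The motifs searched on both strands were AGGTCA (nuclear receptor half-site), TGANNNNGC (antioxidant response element core), TGANTCA (AP-1) and TTGCNNAA (C/EBP), of which TGANNNNGC and TGANTCA can overlap. They occurred in 14.0%, 35.2%, 6.75% and 9.57% of 32841 promoter windows of this length, in that order. The Slco1b2 window held AGGTCA on the minus strand, read as TGACCT, at -81 to -76, counted back from the start. RefSeq windows existed for 58 of the 74 transporters.

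Slc10a1, the main carrier of conjugated bile acids (chromosome 12, 80953183 to 80968705), was at 256, 251 and 273 FPKM in the NC group, 236, 171 and 198 in the APAP group and 203, 184 and 164 in the AMSC group. All APAP livers were below all NC livers, but the difference of -0.38 did not pass the test (SE 0.15, adjusted p = 0.101), while it did after quantile normalization (-0.66, adjusted p = 0.0188), after rescaling to the reads on genes (-0.64, adjusted p = 0.0180) and without APAP replicate 1 (-0.50, adjusted p = 0.0294). Slco1a1 was at 69.7, 68.3 and 73.2 FPKM in the NC group, 71.8, 39.3 and 48.8 in the APAP group and 39.5, 32.9 and 46.5 in the AMSC group. APAP replicate 1 stood within the NC range and the other APAP livers below it, and the difference of -0.44 did not pass (adjusted p = 0.164), though without that library it was -0.67 (adjusted p = 0.0124). Slco1a1 also passed after rescaling to the reads on genes (-0.69, which is -0.48 relative to the median gene). Slco2b1 (20.6 ± 1.85 FPKM in NC, 17.2 ± 2.97 in APAP) and Slco1a4 (12.3 ± 3.35 and 14.6 ± 2.85 FPKM), broad OATPs, differed by -0.26 (adjusted p = 0.250) and 0.25 (adjusted p = 0.414). After the rescaling, Slco2b1 passed as lower (-0.50, adjusted p = 0.0379), which is -0.29 relative to the median gene.

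Among the uptake carriers that stood higher, Slc22a5 (OCTN2, chromosome 11, 53864542 to 53891660) brings carnitine into cells. It was at 8.24, 7.83 and 7.70 FPKM in the NC group, 19.3, 15.0 and 9.50 in the APAP group and 15.3, 22.8 and 21.3 in the AMSC group. Each APAP and AMSC liver was above each NC liver, with the APAP livers widely spread. It rose by 0.75 (SE 0.22, adjusted p = 0.0441), a call lost after rescaling to the reads on genes (0.52, adjusted p = 0.105), after quantile normalization (0.0560), with all genes above 0 (0.161), and without NC replicate 1 (0.103), 2 (0.122) or 3 (0.102) or APAP replicate 1 (0.0710) or 2 (0.121). Slc22a7 (OAT2), an organic anion carrier that also moves nucleotides, was at 7.42, 6.47 and 16.2 FPKM in the NC group, 16.5, 18.2 and 18.6 in the APAP group and 6.05, 2.64 and 10.5 in the AMSC group. NC replicate 3, the library of another date, was close to the APAP livers, and the difference of 0.87 did not pass with it (adjusted p = 0.0627). Without it, within a single date, Slc22a7 stood higher by 1.24 (adjusted p = 0.00283), and with the replicate number as a block by 0.87 (adjusted p = 0.0447).

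On the canalicular side, Abcb11 (chromosome 2, 69238282 to 69342616), which pumps bile salts into bile, was at 62.1, 47.5 and 48.3 FPKM in the NC group, 90.4, 73.5 and 67.2 in the APAP group and 40.8, 45.3 and 55.2 in the AMSC group. Every APAP liver was above every liver of the other groups. It rose by 0.54 (SE 0.16, adjusted p = 0.0470). Abcb4 (chromosome 5, 8893717 to 8959231), which flops phosphatidylcholine into bile, was at 22.7, 20.6 and 19.3 FPKM in the NC group, 41.0, 31.0 and 26.1 in the APAP group and 31.6, 35.4 and 39.3 in the AMSC group. Both treated groups stood above the NC group and overlapped with each other, and Abcb4 rose by 0.60 in the APAP group (SE 0.17, adjusted p = 0.0399). Both calls were lost after rescaling to the reads on genes (0.28, adjusted p = 0.199, for Abcb11 and 0.35, adjusted p = 0.153, for Abcb4, which are 0.50 and 0.57 relative to the median gene), after quantile normalization (0.133 and 0.0765), with all genes above 0 (0.124 and 0.123), and without NC replicate 1 (0.0525 and 0.0820), 2 (0.158 and 0.118) or 3 (0.120 and 0.105) or APAP replicate 1 (0.0839 and 0.0531) or 2 (0.0989 and 0.0887). Exons of Abcb11 overlap with the predicted genes Gm13613 and Gm13614 on the other strand, and whether the counting used the strand is not given in the sources used here.

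Slc47a1, which exchanges protons for organic cations such as metformin, was at 26.8, 24.6 and 23.7 FPKM in the NC group, 19.9, 13.3 and 14.6 in the APAP group and 17.6, 15.5 and 16.9 in the AMSC group. Both treated groups were below all NC livers and overlapped with each other. It fell by 0.64 in the APAP group (SE 0.16, adjusted p = 0.0253), and the call was lost with all genes above 0 (0.0871) and without NC replicate 1 (0.0967), 2 (0.0793) or 3 (0.0502) or APAP replicate 2 (0.0811) or 3 (0.0668).

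The remaining canalicular pumps did not pass. Abcc2, which exports glutathione and glucuronide conjugates, was at 64.3, 47.2 and 28.8 FPKM in the NC group, 88.5, 86.0 and 51.3 in the APAP group and 55.3, 73.8 and 64.5 in the AMSC group. The NC libraries spread over more than the difference between the group means, which was 0.71 on the log2 scale (SE 0.32, adjusted p = 0.142). Within same-numbered pairs APAP was higher each time, and with the replicate number as a block the adjusted p was 0.0134. Abcg2, a pump of sulfate conjugates and drugs, differed by -0.27 (9.91 ± 1.43 against 8.02 ± 1.23 FPKM, adjusted p = 0.220). After rescaling to the reads on genes, Abcg2 passed as lower (-0.51, adjusted p = 0.0353), which is -0.29 relative to the median gene. The sterol half-transporters Abcg5 and Abcg8 differed by -0.01 (adjusted p = 0.980) and 0.03 (adjusted p = 0.944), signs that changed with the library left out or the scaling, and their exons overlap with each other on opposite strands.

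Abcc6 (chromosome 7, 45967555 to 46030302), a pump of the basolateral membrane whose loss causes ectopic mineralization, was at 24.3, 22.7 and 21.7 FPKM in the NC group, 31.2, 31.6 and 28.8 in the APAP group and 24.5, 20.5 and 28.8 in the AMSC group. All APAP livers were above all NC livers, and it rose by 0.40 (SE 0.11, adjusted p = 0.0360). This call was lost after rescaling to the reads on genes (0.15, adjusted p = 0.339), after quantile normalization (0.0810), and without NC replicate 1 (0.0945), 2 (0.126) or 3 (0.0908) or APAP replicate 1 (0.0520) or 2 (0.106). Abcc3 was at 50.6, 49.7 and 36.1 FPKM in the NC group, 80.6, 60.6 and 51.8 in the APAP group and 56.4, 56.9 and 70.6 in the AMSC group. Its APAP livers were above its NC livers, but the difference of 0.48 did not pass (adjusted p = 0.120), and did so only with the replicate number as a block (adjusted p = 0.0309).

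Abcb10 (chromosome 8, 123952459 to 123983122), a pump of the inner mitochondrial membrane that serves heme synthesis, was at 8.71, 8.31 and 6.13 FPKM in the NC group, 4.10, 3.69 and 2.85 in the APAP group and 2.24, 2.77 and 3.09 in the AMSC group. Every treated liver was below every NC liver. It fell by 0.94 (SE 0.17, adjusted p = 0.00661) and kept its call under all 14 alternatives, with adjusted p between 0.00213 and 0.0427. Abcb8, another mitochondrial member, differed by -0.02 (adjusted p = 0.932).

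The methods state no pairing of mice. Same-numbered libraries of these groups deviated together, so a fit with the number as a block was added. The block was thus chosen from these same values, and its fit had 2 residual degrees of freedom. The number of NC replicate 3 rests on its description against its title. With the number as a block, 8 transporters rose and 6 fell (all genes 32.0%), the additions being Abcc2, Abcc3, Slc22a7 and the prostaglandin carrier Slco2a1 (0.42, adjusted p = 0.0251) as higher, and Slc22a23 (-0.50, adjusted p = 0.0436) and Slc10a5 (-0.91, adjusted p = 0.00560) as lower. Without NC replicate 3, 1 rose (Slc22a7) and 2 fell (Abcb10, and Slc10a5 by 1.29, adjusted p = 0.0414), and all 3 were DEGs. That was 3 of 31 beside 22.2% of all genes in the same fit. Exons of Slc10a5, an orphan carrier, overlap with Gm38303 on the same strand. The tested members not named so far were Slc22a4, a carrier of ergothioneine (1.48 ± 0.309 FPKM in NC and 0.984 ± 0.190 in APAP, adjusted p = 0.143), Slc10a3, Abcc10, and Abcc9, which regulates potassium channels of vessel walls (1.27 ± 0.217 and 2.57 ± 1.53 FPKM, adjusted p = 0.154). None of these 4, nor Slc22a18, Slc22a23 or Slco2a1, passed in any comparison with all libraries of the groups in the deposited scale and no block.

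**Figure D2:**
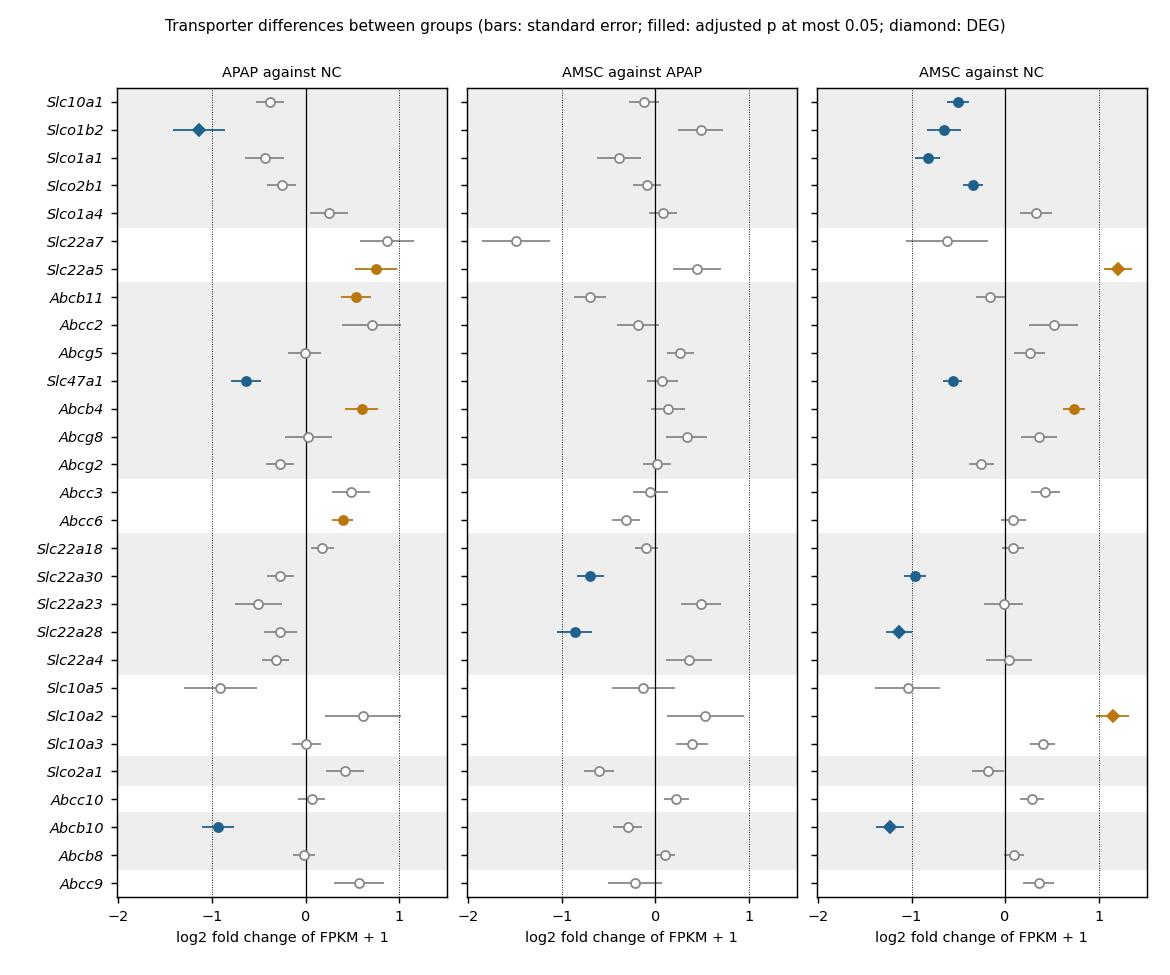
Log2 fold change of FPKM + 1 with its standard error for 29 of the 31 tested transporters in the 3 comparisons, with filled points at an adjusted p of at most 0.05 and diamonds for DEGs. In APAP against NC, 4 filled points lie above 0 and 3 below, in AMSC against APAP only Slc22a28 and Slc22a30 are filled, and in AMSC against NC 3 lie above 0 and 8 below.

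Of the 31 transporters under 1 FPKM, 3 stood higher and 1 lower in APAP against NC when all 24849 genes above 0 were tested (background 7.74%). Slc10a6, a carrier of sulfated steroids, was at 0.0564, 0 and 0.0821 FPKM in the NC group, 0.983, 1.06 and 1.65 in the APAP group and 0.771, 1.09 and 0.627 in the AMSC group. These values rest on 5, 103 and 76 reads per group, with every treated liver above every NC liver, and the log2 difference was 1.08 (SE 0.13, adjusted p = 0.0176). Abcc4, the sinusoidal pump of bile acids and cyclic nucleotides, was at 0.131, 0.281 and 0.227 FPKM in the NC group, 0.805, 0.581 and 0.780 in the APAP group and 0.246, 0.337 and 0.385 in the AMSC group (70, 182 and 90 reads). All APAP livers were above all others, and it rose by 0.50 against NC (SE 0.08, adjusted p = 0.0330). Abcc1, a conjugate pump that hepatocytes express little, rose from 0.0698 ± 0.0227 to 0.167 ± 0.0249 FPKM (0.13, adjusted p = 0.0484). Slc22a3 (OCT3) was at 1.51, 1.33 and 1.26 FPKM in the NC group, 0.0991, 0.143 and 0.0824 in the APAP group and 0.307, 0.460 and 0.280 in the AMSC group, with no overlap between any of the groups. It fell by 1.10 (SE 0.07, adjusted p = 0.00657). Its exons overlap with those of Plg on the other strand, which was at 436 ± 24.8, 589 ± 75.3 and 499 ± 65.6 FPKM in the NC, APAP and AMSC groups. The other members under 1 FPKM averaged between 0.00118 and 0.728 FPKM over the 9 libraries, 14 of the 31 being under 0.1 FPKM. The multidrug pumps Abcb1a (0.595 ± 0.192 and 0.818 ± 0.208 FPKM) and Abcb1b (0.190 ± 0.0286 and 0.0875 ± 0.0469 FPKM) did not pass.

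To ask how livers given AMSCs after APAP stood against those given APAP alone, the AMSC group was compared with the APAP group. The methods describe a tail vein injection for AMSCs only, so the cells cannot be told apart from their injection. At an unadjusted p under 0.05, 1 transporter was higher in limma and 2 by voom on recovered reads, and 0 in either after adjustment. Only Slc22a28 and Slc22a30 passed, both lower, and none was higher or a DEG. That was 2 of 31, or 6.45%, beside 3.78% of all genes tested (1.64% higher and 2.14% lower) and 1.96% DEGs. The median difference over the 31 was -0.02, and groups did not overlap for 6 (1 higher and 5 lower), beside 27.0% of all genes.

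Slc22a28 and Slc22a30 are neighbouring organic anion transporter genes of rodents on the minus strand of chromosome 19 (8062209 to 8131982 and 8335371 to 8405111). Their longest transcripts were identical at 98.9% of 1485 aligned bases, so reads could be split between them and their separate levels are uncertain. Slc22a28 was at 3.47, 2.86 and 3.80 FPKM in the NC group, 3.61, 2.34 and 2.08 in the APAP group and 1.07, 0.729 and 1.20 in the AMSC group, on 19 to 131 reads per library. Slc22a30 was at 36.1, 29.3 and 31.0 FPKM in the NC group, 30.9, 24.1 and 24.6 in the APAP group and 15.3, 14.9 and 17.7 in the AMSC group. For both, each AMSC liver was below each liver of the other groups, whose ranges overlapped. Slc22a28 fell by 0.86 (SE 0.18, adjusted p = 0.0465) and Slc22a30 by 0.69 (SE 0.14, adjusted p = 0.0421). Both calls were lost without any single APAP library (adjusted p = 0.0585 to 0.0886) or AMSC library (0.106 to 0.156), after rescaling to the reads on genes (0.0501 and 0.0612), after quantile normalization (0.0507 and 0.0519) and with all genes above 0 (0.185 and 0.131). Of all genes, 3.78% were called in the main fit, 1.24% to 3.77% without an APAP library and 1.03% to 1.08% without an AMSC library. As the 2 transporters that moved together here, their promoters are shown (chosen after their values were seen), again as the 250 bases before the RefSeq start on GRCm38.p6, minus strand, at chr19:8131983-8132232 and chr19:8405106-8405355, with capitals marking a TTGCNNAA match.

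Slc22a28: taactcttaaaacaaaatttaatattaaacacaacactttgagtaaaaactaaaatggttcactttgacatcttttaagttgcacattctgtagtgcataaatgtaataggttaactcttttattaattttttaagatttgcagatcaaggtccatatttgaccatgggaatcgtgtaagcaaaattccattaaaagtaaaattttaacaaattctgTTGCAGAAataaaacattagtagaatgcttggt
Slc22a30: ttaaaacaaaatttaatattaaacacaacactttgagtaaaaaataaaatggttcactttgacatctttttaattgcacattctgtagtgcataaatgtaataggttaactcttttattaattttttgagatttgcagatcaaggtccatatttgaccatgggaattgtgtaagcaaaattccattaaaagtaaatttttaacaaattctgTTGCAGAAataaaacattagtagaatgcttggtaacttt

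The windows were identical at 238 of 244 aligned bases. The match lay at -33 to -26 in Slc22a28 and at -39 to -32 in Slc22a30, and none of the other motifs listed above was found in either.

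Slc22a7 had the largest difference in this comparison, -1.49 (SE 0.36), with all AMSC livers below all APAP livers, and did not pass (adjusted p = 0.0705). It did without AMSC replicate 4 (-1.89, adjusted p = 0.0408) and in a test of reads recovered from the FPKM (-1.65, adjusted p = 0.0412). Abcb11 differed by -0.70 (adjusted p = 0.0655, with 0.0467 on recovered reads and 0.0363 with all 9 libraries in a fit) and Slco2a1 by -0.60 (9.27 ± 1.79 FPKM in APAP, 5.69 ± 0.442 in AMSC, adjusted p = 0.0829), again with every AMSC liver below every APAP liver. Slco1b2, which fell after APAP, differed here by 0.48 (adjusted p = 0.298), with overlapping groups. None of the 31 transporters under 1 FPKM passed in limma (background 0.213%), with 3 higher and 3 lower at an unadjusted p under 0.05. Abcc4 (-0.38, adjusted p = 0.179) was lower and Slc22a3 (0.28, adjusted p = 0.172) higher in each AMSC liver than in each APAP liver.

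**Figure D3:**
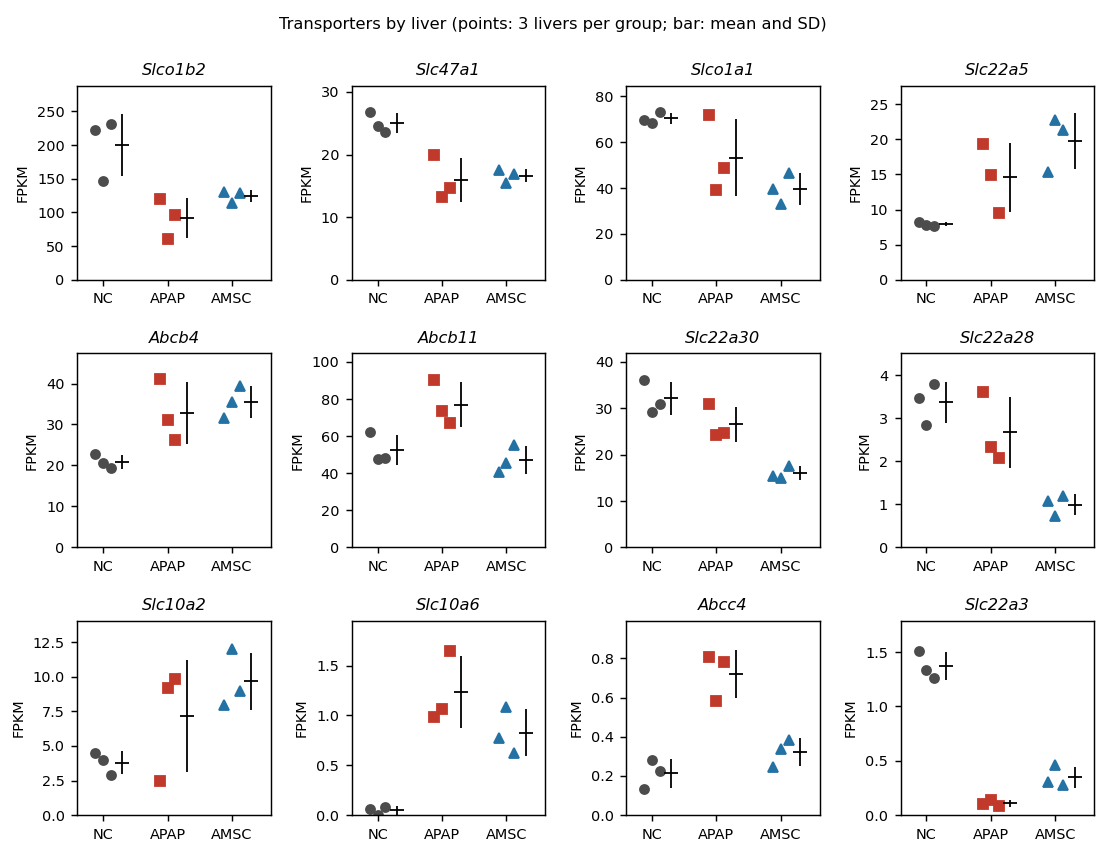
FPKM of 12 transporters by liver, with points for the 3 livers of each group in replicate order and the mean and SD beside them. Slco1b2 stands below the NC livers in both treated groups, Slc22a5 and Abcb4 above them, and Slc22a30 and Slc22a28 are low in the AMSC group only.

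To ask how livers that received APAP and AMSCs stood against normal control livers, the AMSC group was compared with the NC group. Here 3 transporters rose (Slc22a5, Slc10a2 and Abcb4) and 8 fell (Abcb10, Slc22a28, Slc22a30, Slco1a1, Slco1b2, Slc47a1, Slc10a1 and Slco2b1). That was 11 of 31, or 35.5%, beside 26.0% of all genes (14.1% higher and 11.9% lower), with 4 DEGs beside 6.01%. The median over the 31 was -0.02, and groups did not overlap for 14 (6 higher and 8 lower), beside 43.5% of all genes. Rescaled to the reads on genes, 3 rose and 10 fell (all genes 911 higher and 2175 lower, against 1367 and 1154), and the counts share the NC libraries with APAP against NC.

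Slc22a5 rose by 1.20 (SE 0.15, adjusted p = 0.00106) and was a DEG. The call held under all 14 alternatives, with adjusted p from 0.000439 to 0.0211. Slc10a2 (chromosome 8, 5083219 to 5105351), the apical bile acid carrier ASBT of ileum, kidney and cholangiocytes, was at 4.50, 3.98 and 2.90 FPKM in the NC group, 2.48, 9.17 and 9.86 in the APAP group and 7.99, 12 and 9.01 in the AMSC group. All AMSC livers exceeded all NC livers, while APAP replicate 1 was below the NC range and the other APAP livers above it. It rose by 1.15 against NC (SE 0.18, adjusted p = 0.00282), a DEG whose call was lost only with all 9 libraries in a single fit (adjusted p = 0.0530), and in APAP against NC differed by 0.62 (adjusted p = 0.308), or by 1.15 without APAP replicate 1 (adjusted p = 0.00406). Of the 5 cholangiocyte markers, Sox9 rose in AMSC against NC (0.74, adjusted p = 0.0252), and the list summed to 2.47 to 4.97 FPKM in the NC, 23.1 to 37.6 in the APAP and 5.24 to 5.62 in the AMSC group, with Cftr and Krt7 averaging 0.0217 and 0.133 FPKM over the 9 libraries. Their part in the result was not tested. Abcb4 rose by 0.73 (SE 0.12, adjusted p = 0.00338).

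Of the 5 carriers of the OATP and NTCP class, 4 fell in AMSC against NC, beside 11.9% of all genes. Each of the 4 had all AMSC livers below all NC livers, where groups did not overlap in either direction for 43.5% of all genes. Slco1a4 differed by 0.33 (adjusted p = 0.189). Slco1a1 fell by 0.83 (SE 0.14, adjusted p = 0.00359) and kept its call under all 14 alternatives. Slc10a1 fell by 0.50 (SE 0.12, adjusted p = 0.0156), a call lost without NC replicate 1 (0.0519) or AMSC replicate 4 (0.0586). Slco1b2 fell by 0.65 (SE 0.18, adjusted p = 0.0298), a call lost without NC replicate 3 (-0.54, adjusted p = 0.0770), NC replicate 1 (0.103) or any AMSC library (0.0638 to 0.0746). Slco1b2 passed under only 6 of 14 alternatives, being lost also with all genes above 0, all 9 libraries in a fit and the replicate block. Slco2b1 fell by 0.34 (SE 0.11, adjusted p = 0.0492) and passed under only 5 of 14 alternatives, being lost without NC replicate 1 (0.162) or 2 (0.155) and without any AMSC library (0.0858 to 0.108). Exons of Slco2b1 overlap with Gm15635 and Gm34280 on the other strand.

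Abcb10 fell by 1.23 (SE 0.15, adjusted p = 0.00103), Slc22a28 by 1.13 (SE 0.14, adjusted p = 0.000956) and Slc22a30 by 0.96 (SE 0.12, adjusted p = 0.00103), with each call held under all 14 alternatives. The first 2 of these were DEGs. Slc47a1 fell by 0.56 (SE 0.10, adjusted p = 0.00593). Without NC replicate 3, 3 rose and 9 fell (all genes 24.3%), with Slc10a5 (-1.42, adjusted p = 0.0115) and Slco2a1 (-0.38, adjusted p = 0.0488) added to those that fell and Slco1b2 lost. Under 1 FPKM, Slc10a6 rose by 0.80 (adjusted p = 0.0214) and Slc22a3 fell by 0.81 (adjusted p = 0.0134), beside 7.15% of all genes above 0.

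The classes were also summed within each liver, as a description. The 7 sinusoidal uptake carriers included summed to 594, 518 and 632 FPKM in the NC group, 496, 334 and 403 in the APAP group and 426, 387 and 404 in the AMSC group, so that every treated liver was below every NC liver. The 9 canalicular transporters summed to 235, 182 and 180 FPKM in the NC group, 303, 249 and 207 in the APAP group and 202, 228 and 245 in the AMSC group, with overlap between all groups. The 3 sinusoidal efflux pumps summed to 75.1, 72.7 and 58.0 FPKM in the NC group, 113, 92.8 and 81.3 in the APAP group and 81.1, 77.8 and 99.7 in the AMSC group. Both treated groups lay above the NC group on the deposited scale, which lists an equal share of reads higher in them. The separation is given for that scale only, as the sums were not rescaled. The ratio of canalicular to uptake sums, which the scaling of a library cannot move, was 0.396, 0.351 and 0.284 in the NC group, 0.610, 0.747 and 0.513 in the APAP group and 0.474, 0.590 and 0.608 in the AMSC group. No treated liver reached down to the NC range in this ratio. A few genes carry these sums, Slc10a1 alone making 44.9 ± 3.04% of the uptake sum in the NC group.

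**Figure D4:**
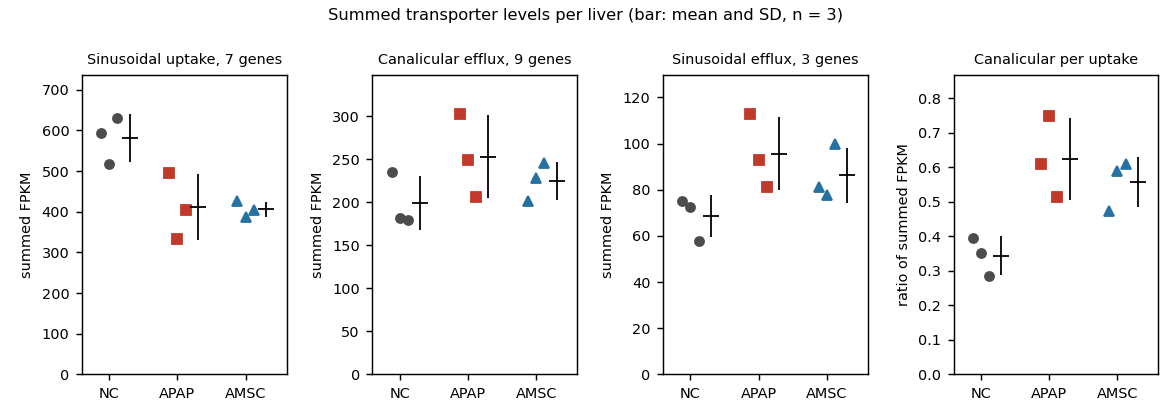
Summed FPKM per liver of 7 sinusoidal uptake carriers, 9 canalicular and 3 sinusoidal efflux transporters, and the ratio of canalicular to uptake sums, with 3 livers per group and the mean and SD beside them. The ratio lies between 0.284 and 0.396 in the NC group and between 0.474 and 0.747 in the treated groups.

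The nuclear receptors and liver factors known to act on these genes were looked up as a fixed list of 18, all tested. For the counts in this paragraph, the shares of all genes tested were 12.8% higher and 13.1% lower in APAP against NC. They were 1.64% and 2.14% in AMSC against APAP, and 14.1% and 11.9% in AMSC against NC. Of the 18, 1 rose and 7 fell in APAP against NC. Nr1h4 (FXR, the bile acid sensor that drives Abcb11) fell from 62.7 to 31.1 FPKM on average (adjusted p = 0.00535), Ahr fell by 1.42 (adjusted p = 0.00475) and Foxa2 by 1.31 (adjusted p = 0.0104), while Nr1i2 (PXR, a drug sensor) rose by 0.48 (adjusted p = 0.0453). In AMSC against APAP, Ahr rose by 1.46 (adjusted p = 0.0273) and Rxra by 0.77 (adjusted p = 0.0481), and Nr0b2 (SHP, a repressor induced by FXR) fell by 1.77 (adjusted p = 0.00213). In AMSC against NC, 3 rose, led by Hnf4a (1.06, adjusted p = 0.00745), and 5 fell. Whether these calls hold under the rescaling or without a library is not given. Of 15 tested transporters and partner proteins outside the families above, 2 rose and 4 fell in APAP against NC. None passed in AMSC against APAP (3 lower at an unadjusted p under 0.05 in limma and 3 by voom, 0 by voom after adjustment), and 5 fell in AMSC against NC. The scaffold Pdzk1, which binds Slc and Abc transporters, fell by 0.70 (adjusted p = 0.0123), the nucleoside carrier Slc29a1 by 0.65 (adjusted p = 0.00854) and the copper pump Atp7b by 0.75 (adjusted p = 0.0206), while the lactate carrier Slc16a1 rose by 0.91 (adjusted p = 0.00403).

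Markers of liver zones and of other cells moved with the groups. Their counts stand beside 12.8% of all genes higher and 13.1% lower in APAP against NC. These shares were 1.64% and 2.14% in AMSC against APAP, and 14.1% and 11.9% in AMSC against NC. Of 8 tested pericentral hepatocyte markers, 7 fell in APAP against NC, 4 rose in AMSC against APAP and 5 fell in AMSC against NC, and the list summed to 4543 to 5606, 508 to 2286 and 4307 to 4550 FPKM in the NC, APAP and AMSC groups. Cyp2e1, which oxidizes APAP, was at 3605, 3247 and 3373 FPKM in the NC group, 1541, 294 and 705 in the APAP group and 3848, 3521 and 3488 in the AMSC group. Of 11 periportal markers, 6 rose in APAP against NC, 3 fell in AMSC against APAP, and 3 rose and 2 fell in AMSC against NC. All 3 tested neutrophil markers rose against NC in both treated groups, from a sum of 0.330 to 1.82 FPKM in the NC group to 7.42 to 34.5 in the APAP and 4.24 to 5.89 in the AMSC group, while the defining marker Ly6g averaged 0.0174 FPKM over the 9 libraries. Of 3 erythroid genes, 2 rose in APAP against NC, with sums of 121 to 227 and 272 to 1240 FPKM. In APAP against NC, 1 each of 6 Kupffer cell and 5 endothelial markers rose and none of 5 stellate cell markers passed. At an unadjusted p under 0.05, 2 stellate cell markers were higher and 1 lower in limma. By voom, 3 were higher and 1 lower at this unadjusted p, and 0 after adjustment. The part of these cells and zones in the transporter differences was not tested.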

How the data were processed

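Mouse liver RNA was measured by RNA-seq in 9 libraries, and groups were taken from the sample labels. The members and gene lists were chosen with earlier results of these data known.

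The authors deposited FPKM values per gene with gene lengths and coordinates. The submitters' processing notes name GRCm38 and mm10, and 98.3% of the identifiers that GENCODE vM21 also holds had equal coordinates there. The aligner, the counting program and its use of strand are not given in the sources used here. FPKM times gene length gave whole reads (within 0.1 of a read) for 100.0% of values above 0 in each library, 13418921 to 16210930 reads on genes in all.

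A filter on low values kept 9699 genes, those averaging 1 FPKM or more. On log2(FPKM + 1), limma 3.58.1 under R 4.3.3 fitted 2 groups at a time (lmFit, then eBayes allowing a mean-variance trend), and Benjamini-Hochberg adjustment ran over all genes kept. Fold changes on this scale understate those of low genes. Calls needed an adjusted p of 0.05 or less, and DEGs in addition a log2 fold change of 1 or more in size, the study's thresholds. Every hepatic core member and every called member is named, other members by class and count, and up to 4 called genes of a list, except a few genes that are not reported here and stay out of the class sums and figures but within all other counts; members with values under other settings were added after these were seen. Promoters are shown for DEGs of APAP against NC by rule, and for the Slc22a28 pair by choice. Overlap with other genes' exons is from GENCODE vM21.

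Same-numbered libraries of the APAP and NC groups deviated from their group means together (r = 0.213, 0.160 and 0.378 across genes, each highest for its own number), so the blocked fit is given there. The pair numbered 3 uses the number in the description of NC replicate 3, which its title contradicts. Tried besides were testing all genes above 0, a pseudocount of 0.1, quantile normalization, all 9 libraries in a fit, the replicate block, voom on the recovered reads, no trend, each library left out and, added after seeing the data, scaling to the total reads on genes. Tests were checked on simulated data. Figures used matplotlib 3.10.9, with numpy 2.4.6 and pandas 2.3.3, under Python 3.11.15.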

Additional observations from a re-analysis of the deposited data

How the results depend on the processing

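Shares of all genes called are in the order APAP against NC, AMSC against APAP and AMSC against NC. They were 25.9%, 3.78% and 26.0% in the main fit and 26.4%, 3.71% and 27.3% after quantile normalization. Scaling to total reads gave 35.7%, 4.40% and 31.8%, the block 32.0%, 4.01% and 8.72%. All 9 libraries in a fit gave 30.6%, 6.43% and 23.0%, and voom 27.0%, 4.78% and 27.9%. Without a replicate they were 13.9% to 28.3%, 1.03% to 3.77% and 17.3% to 24.3%. Counts of transporters are given as higher, lower and DEGs. APAP against NC gave 4, 4 and 1, with 0, 5 and 1 after quantile normalization, 0, 10 and 3 after scaling to total reads, 8, 6 and 1 with the replicate block, 4, 2 and 2 with all genes above 0 (62 transporters, of which 1 higher and 1 lower belonged to the 31), 5, 4 and 2 with voom, and 2 DEGs with a pseudocount of 0.1; leaving out a replicate gave 0 to 4, 1 to 6 and 0 to 3. AMSC against APAP gave 0, 2 and 0, with 0, 0 and 0 after quantile normalization, with all genes above 0 or after scaling to total reads, 0, 1 and 1 with the replicate block, 0, 3 and 0 with all 9 libraries in a fit (Abcb11 added), 0, 4 and 2 with voom and 1 DEG with a pseudocount of 0.1; without a replicate it gave 0, 0 to 1 and 0 to 1. AMSC against NC gave 3, 8 and 4, with 3, 10 and 6 after scaling to total reads, 2, 6 and 3 with all 9 libraries in a fit, 2, 4 and 4 with the replicate block and 3, 9 and 6 with voom; without a replicate it gave 3 to 4, 5 to 9 and 3 to 5. The numbers 2 and 3 shared with the AMSC group did not pair its libraries (r = -0.104 and -0.293 with APAP, -0.199 and -0.309 with NC); the block removed Abcb4, Slc47a1, Slc10a1, Slco1b2 and Slco2b1 from the calls against NC and Slc22a28 and Slc22a30 from those against APAP, where Slc22a7 passed (-1.93, adjusted p = 0.000333). In these blocked fits only the libraries numbered 2 and 3 carried the group difference, since numbers 1 and 4 had no partner. The fits had 1 residual degree of freedom. How far this accounts for the moves was not tested. Only differences that had not passed changed sign. In APAP against NC, Abcg5 ranged from -0.183 to 0.0934 over the replicates left out and Abcg8 from -0.209 to 0.204, with -0.0184 for Abcg8 after quantile normalization and -0.217 after scaling to total reads. In AMSC against APAP the ranges over the replicates left out were -0.0133 to 0.302 for Abcb4, -0.195 to 0.120 for Abcc3, -0.0590 to 0.126 for Abcg2, -0.0389 to 0.238 for Slc47a1, -0.00341 to 0.229 for Slco1a4 and -0.199 to 0.0341 for Slco2b1. With the block, Abcc3 gave 0.0161, Slc10a1 0.0730 and Slco1a4 -0.0307, and scaling to total reads gave 0.0118 for Abcc3. In AMSC against NC, Abcc6 gave -0.101 after scaling to total reads and -0.0298 to 0.204 over the replicates left out. With 3 libraries per group and as few as 19 reads on a tested transporter, small differences of the low genes were not detectable.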
